A study of Mus musculus with 12 samples.

Results

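Parental mouse embryonic stem cells (ESCs) were compared with ESC + H/F-PRAMEL7 WT, a line that expresses the complete PRAMEL7 protein, by sequencing of polyadenylated RNA. All genes with at least 1 read in both libraries of either line were taken, which gave 19296 of the 48007 genes that could be matched to the annotation. Of these, 18193 were detected in both parental libraries, 17802 in both libraries of ESC + H/F-PRAMEL7 WT and 16699 in all 4. Another 506 genes were detected in both parental libraries and in neither library of ESC + H/F-PRAMEL7 WT, and 298 the other way round. None of these had more than 15 reads in any library, so their absence was not distinguishable from low counts.

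Both lines are E14 ESCs of male 129 origin grown in serum medium with leukemia inhibitory factor (LIF). In ESC + H/F-PRAMEL7 WT, Cas9 had been used to place a Pramel7 sequence with an HA/FLAG tag (H/F) and the CAG promoter into the Rosa26 locus, followed by puromycin selection and isolation of a clone from a single cell. Parental ESCs carry no insertion and had not been cloned in this way, so the effect of PRAMEL7 and differences particular to this clone cannot be told apart. A further line, ESC + H/F-PRAMEL7 dN, made in the same way with PRAMEL7 lacking its N-terminus, was sequenced beside them and entered the same fit. Per the sample labels, the libraries of a line came from 2 independent dishes, and the P values measure the spread between such dishes.

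PRAMEL7 is a leucine-rich repeat protein of the PRAME family that is expressed in the early mouse embryo. It is a substrate receptor of the CUL2 ubiquitin ligase, in which the scaffold CUL2, the adaptors ELONGIN B and C and the RING protein RBX1 join a bound protein to the ubiquitin system. ESCs in serum express pluripotency factors together with genes of later development and have highly methylated DNA, whereas ground-state ESCs resemble the inner cell mass and have hypomethylated DNA. Germline genes and imprinted genes are among the genes whose promoters or control regions are regulated by DNA methylation.

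The 4 libraries held between 18247387 and 19847408 reads on genes. Levels are given as CPM, the reads of a gene per 1000000 reads on genes, recovered from the deposited RPKM values. Changes are log2 fold changes on the log2(CPM + 1) scale, which understates the change of genes near or under 1 CPM. Of the detected genes, 12913 were above 1 CPM in at least 2 of the 6 libraries and were tested, and 6383 were too low. The defining ESC genes Pou5f1, Sox2, Nanog, Klf4, Zfp42 and Esrrb were at 172 CPM or more in each of the 4 libraries. Among markers of other cell types, the 9 tested primitive streak and mesoderm genes summed to between 19.8 and 27.9 CPM per library, the 8 fibroblast genes to between 219 and 234 CPM and the 18 trophectoderm genes to between 253 and 315 CPM. The 9 neural genes summed to 605 and 601 CPM in the parental libraries and to 683 and 703 CPM in those of ESC + H/F-PRAMEL7 WT. The 15 primitive endoderm genes summed to 1830 and 1870 CPM against 2110 and 2100 CPM. The sums of the neural and primitive endoderm lists were thus higher in both libraries of ESC + H/F-PRAMEL7 WT, and their part in other results was not tested. In bulk RNA, fewer cells of a type and less RNA per cell cannot be told apart.

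The parental libraries differed more from each other than the libraries of ESC + H/F-PRAMEL7 WT. Across the 12914 genes tested, 788 (6.1%) were apart by more than 0.58 on the log2 scale between the parental libraries, against 131 (1.01%) between the libraries of ESC + H/F-PRAMEL7 WT. The correlations across genes were 0.990 and 0.997. The mitochondrial mRNAs stood out, with a median 0.92 higher on the log2 scale in parental library 1 than in parental library 2.

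**Figure D1:**
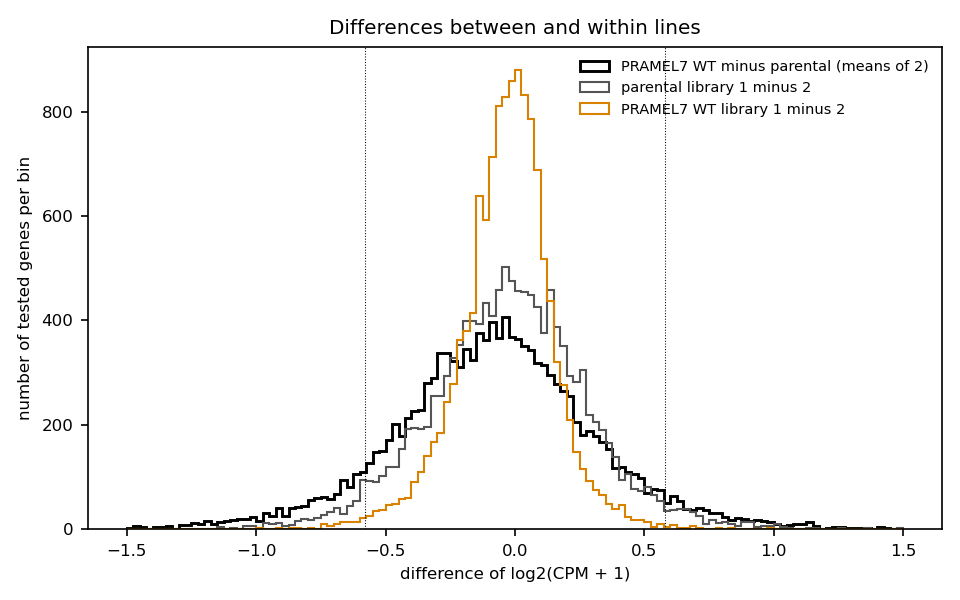
Histograms of differences of log2(CPM + 1) over the 12914 tested genes (x axis, bins of equal width; y axis, number of genes). The difference between the line means (black) has its median at -0.08 and is wider than the difference between the libraries of ESC + H/F-PRAMEL7 WT (orange). It is closer in width to the difference between the parental libraries (grey). The black curve compares means of 2 libraries and the others compare single libraries, so the widths are not directly comparable. Dotted lines mark 0.58 in either direction.

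Pramel7 itself was nearly silent in parental ESCs, with 0.258 and 0.217 CPM from 5 and 4 reads. The libraries of ESC + H/F-PRAMEL7 WT had 51.2 and 46.2 CPM. The means were 0.237 ± 0.029 and 48.7 ± 3.5 CPM (SD, n = 2 each), with a log2 fold change of 5.33 (standard error 0.11, adjusted p = 1.42e-08, limma). Reads of the inserted sequence and of the endogenous gene on chromosome 2 (87489087 to 87497093, minus strand, GRCm38) could not be separated in these values.

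A gene was called when its adjusted P value was under 0.05 and its log2 fold change was above 0.58 in either direction. In ESC + H/F-PRAMEL7 WT, 526 genes were upregulated (4.07% of the 12914 tested) and 1086 were downregulated (8.41%), or 12.5% in either direction. In all of the called genes the libraries of the lines did not overlap. Over all tested genes this held for 64.2%, with 24.3% in the upward and 40% in the downward direction. Most changes were moderate: 90 genes rose and 233 fell by more than 1 on the log2 scale, and 2 rose and 8 fell by more than 2. The median log2 fold change of all tested genes was -0.08, so smaller changes have to be read against this shift. When the libraries were rescaled by their median ratio, the median was 0.00 and the calls were 750 up and 818 down, or 47.8% upregulated in place of 32.6%. With quantile normalization they were 803 and 759. Without the first library of ESC + H/F-PRAMEL7 WT the counts fell to 263 and 428, and without its second library to 199 and 475.

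Calls, and above all downregulation, were more frequent among weakly expressed genes. Of the 2133 tested genes at up to 3 CPM, 14.4% fell and 4.97% rose, and of the 2196 genes between 3 and 10 CPM, 15% fell and 5.15% rose. Among the 2269 genes above 100 CPM, 2.03% fell and 2.47% rose. The median log2 fold changes of these classes were -0.14, -0.15 and 0.00, so the weaker classes were also shifted downward in their medians. Whether the difference in calls between the classes holds under other scalings was not tested. By annotation, 491 upregulated and 1031 downregulated genes were protein coding. Of 179 tested lincRNAs, 10 rose and 28 fell. Of 365 pseudogenes, 16 rose and 7 fell, and their median log2 fold change was 0.12, a class whose reads can come from the parent genes. Between 0.53 and 0.58 on the log2 scale, just under the fold limit, 100 more genes were higher and 183 lower by adjusted P value, while 87 and 158 of the called genes lay within 0.05 above it.

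**Figure D2:**
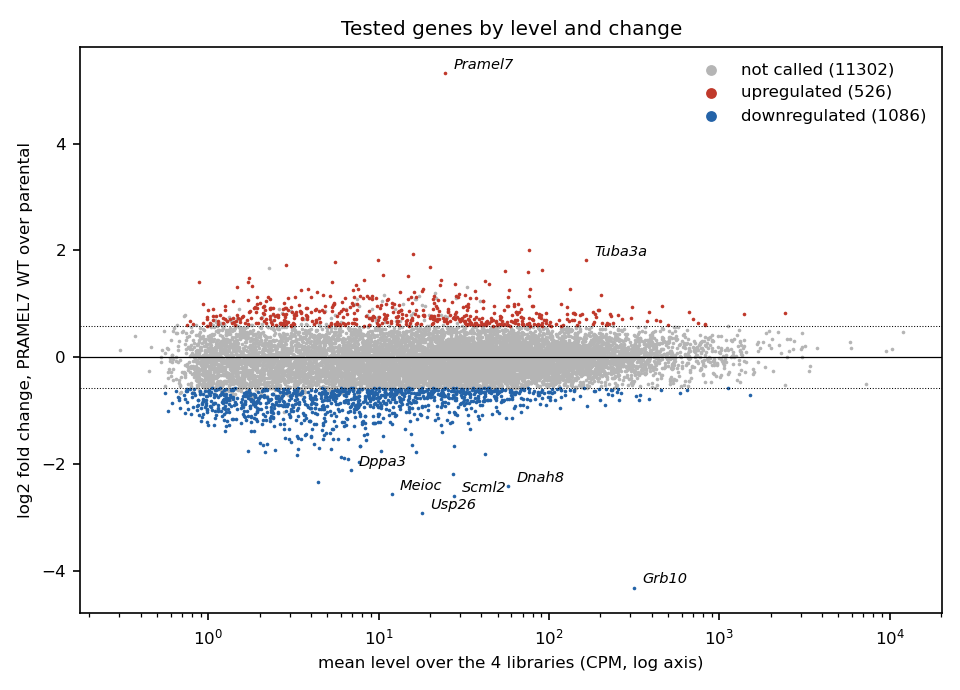
Each point is 1 of the 12914 tested genes, by its mean CPM over the 4 libraries (x axis, log scale) and its log2 fold change in ESC + H/F-PRAMEL7 WT over parental ESCs (y axis). The 526 upregulated genes are red, the 1086 downregulated genes blue and the others grey, with dotted lines at 0.58 in either direction. The blue points gather at the lower levels, and Pramel7 (5.33) and Grb10 (-4.32) lie apart from all other genes.

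The strongest fall was that of Grb10, an imprinted adaptor protein that dampens insulin and growth factor receptor signaling and whose main transcript comes from the maternal allele in most tissues. It had 679 and 532 CPM in parental ESCs and 29.7 and 28.7 CPM in ESC + H/F-PRAMEL7 WT, which is 20.8-fold lower (log2 fold change -4.32, standard error 0.11, adjusted p = 5.28e-08, limma). The libraries of ESC + H/F-PRAMEL7 dN had 621 and 627 CPM, in the range of the parental ones. The gene lies on chromosome 11, from 11930508 to 12038683.

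The other 14 downregulated genes with the largest changes were led by germline genes. The rule took genes at 10 CPM or more on average whose libraries did not overlap between the lines. Usp26, an X-linked deubiquitinase gene of the testis, had 30.3 and 34.5 CPM in parental ESCs and 4 and 2.92 CPM in ESC + H/F-PRAMEL7 WT, a log2 fold change of -2.91. Scml2, which encodes a germline protein of Polycomb repressive complex 1, fell from 45.2 and 51.2 CPM to 7.14 and 7.05 CPM (-2.60). Meioc, required for the meiotic program, fell from 20.2 and 22 CPM to 2.89 and 2.59 CPM (-2.56). In each of these genes the parental libraries were close to each other and far above both libraries of the expressing line. Dnah8, an axonemal dynein heavy chain of sperm, fell from 79.9 and 116 CPM to 16.2 and 18.2 CPM (-2.42). M1ap, a gene of male meiosis, fell by 1.77 on the log2 scale, Rec8, the meiotic cohesin subunit, by 1.4, and Map7d2, a microtubule-associated protein, by 1.35. Genes known from other tissues were among them: Calb2 (calretinin) had -1.82, Ncan (the brain proteoglycan neurocan) -1.77, Kif1a (an axonal kinesin) -1.66, Myh13 (a muscle myosin) -1.64, Bcas1 -1.48 and Ccdc88a (girdin, an actin-binding protein) -1.45. The predicted gene Gm17657 had 47.1 and 42.9 CPM in parental ESCs and 12.3 and 6.7 CPM in ESC + H/F-PRAMEL7 WT. Its call was lost when either library of ESC + H/F-PRAMEL7 WT was left out (adjusted p = 0.056 without library 1 and 0.13 without library 2).

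Beside Pramel7, 14 genes led the upregulated side by the same rule. Among them, Pdgfc, a platelet-derived growth factor, had 8.00 and 4.34 CPM in parental ESCs and 25.4 and 25.5 CPM in ESC + H/F-PRAMEL7 WT (log2 fold change 1.93, standard error 0.22, adjusted p = 0.000991, limma). Tuba3a, an alpha-tubulin of the testis with a near-identical copy that could share its reads, had 62.2 and 82.1 CPM against 261 and 250 CPM (1.82). For Pdgfc and Tuba3a both libraries of the expressing line lay far above either parental library. The homeobox genes Nkx6-3 and Rhox5 rose by 1.68 and 1.63, and Rhox5, the founding gene of an X-linked homeobox cluster expressed in placenta and testis, went from 38.5 and 49.5 CPM to 130 and 144 CPM. Krt17, a keratin of stressed epithelia, went from 34.3 and 39.6 CPM to 110 and 116 CPM (1.59). D1Pas1, a DEAD-box helicase gene of the testis that resembles Ddx3x, went from 15.6 and 15.0 CPM to 39.1 and 42.7 CPM (1.36). Others were AU015836 (1.60), Tmem40 (1.54), the transcriptional regulator Rai1 (1.52), the small GTPase Rab15 (1.45), the cytoskeletal adaptor Obsl1 (1.43), the glutathione peroxidase Gpx2 (1.37) and the potassium channel Kcnk1 (1.36). The calls of these genes stood in each fit that left out a library. Rab15 and Gpx2 are neighbors on chromosome 12, from 76797960 to 76822908 and from 76792333 to 76795554.

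**Figure D3:**
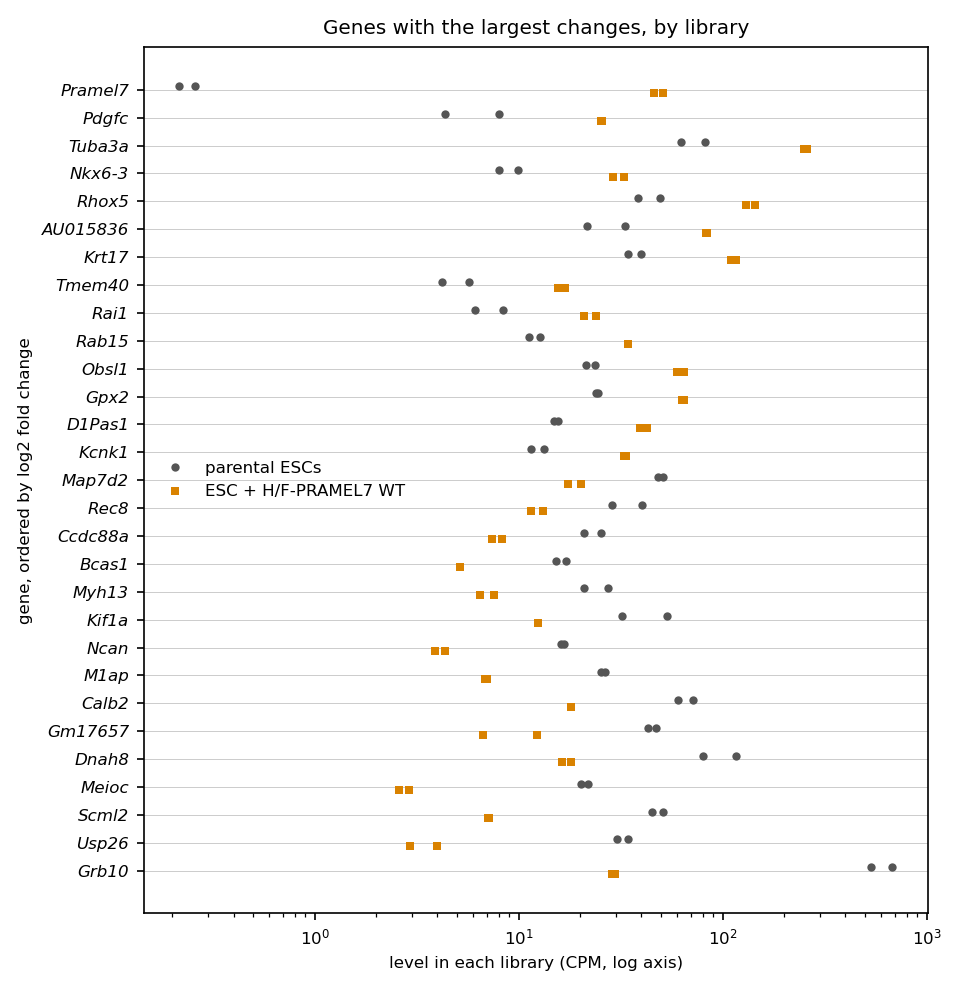
Levels in each of the 4 libraries (x axis, CPM, log scale) for upregulated and downregulated genes among those with the largest log2 fold changes, ordered by that change (y axis). Grey circles are the parental libraries and orange squares those of ESC + H/F-PRAMEL7 WT. Genes were drawn only if the circles and squares did not overlap, and the parental pairs of Pdgfc, AU015836 and Kif1a are among the widest.

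The genes that moved most on both sides included genes of the testis, and the promoters of 4 of them are shown because CpG sites are where DNA methylation acts. The 250 bases before the RefSeq start are given 5′ to 3′ on the strand of the gene (GRCm38.p6), with each CpG in capitals. D1Pas1 and Tuba3a rose, and Usp26 and M1ap fell.
D1Pas1 (chr1:186967166-186967415, plus strand): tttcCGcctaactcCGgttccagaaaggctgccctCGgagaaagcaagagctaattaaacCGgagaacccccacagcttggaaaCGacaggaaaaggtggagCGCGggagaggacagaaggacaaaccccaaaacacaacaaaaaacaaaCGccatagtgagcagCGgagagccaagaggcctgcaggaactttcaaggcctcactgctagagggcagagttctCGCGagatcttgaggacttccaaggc
Tuba3a (chr6:125286082-125286331, minus strand): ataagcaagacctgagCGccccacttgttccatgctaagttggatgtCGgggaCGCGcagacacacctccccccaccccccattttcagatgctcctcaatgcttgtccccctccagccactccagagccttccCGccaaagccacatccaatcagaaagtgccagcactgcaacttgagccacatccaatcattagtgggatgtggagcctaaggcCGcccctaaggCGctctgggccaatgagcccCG
Usp26 (chrX:51801234-51801483, minus strand): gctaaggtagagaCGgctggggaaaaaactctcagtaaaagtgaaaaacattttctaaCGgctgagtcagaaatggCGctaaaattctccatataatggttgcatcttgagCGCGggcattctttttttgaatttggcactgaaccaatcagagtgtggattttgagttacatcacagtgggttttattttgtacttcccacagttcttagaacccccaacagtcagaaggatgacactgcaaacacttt
M1ap (chr6:82946672-82946921, plus strand): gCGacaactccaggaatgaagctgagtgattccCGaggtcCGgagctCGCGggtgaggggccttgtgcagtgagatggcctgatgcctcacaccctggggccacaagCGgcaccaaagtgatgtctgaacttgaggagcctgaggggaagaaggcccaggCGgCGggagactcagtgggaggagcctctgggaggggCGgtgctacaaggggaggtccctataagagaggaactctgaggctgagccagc
These windows hold 11, 8, 5 and 9 CpG sites. The median over the 9848 tested genes with a RefSeq promoter window was 16, with quartiles of 10 and 23. The CpG counts of these 4 genes, rising or falling, thus lay in the same range, all below that median. The 4 were picked as examples and do not stand for all rising or falling genes. DNA methylation was not measured in these files.

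Germline genes had calls in both directions. Of the 42 tested members of the germline list, 8 rose and 11 fell, against 4.07% and 8.41% of all tested genes, and their median log2 fold change was -0.23 against -0.08. These shares of all tested genes are the background of every list count, and by adjusted P value alone they were 8.71% higher and 16.3% lower. The rises were among genes of various roles, with Tuba3a (1.82), Fkbp6 (1.73) and Rhox5 (1.63) the highest. Fkbp6, a cochaperone of meiosis and of the piRNA pathway, had 0.929 and 0.651 CPM in parental ESCs and 4.86 and 5.01 CPM in ESC + H/F-PRAMEL7 WT. None of the 11 tested meiotic chromosome genes rose and 3 fell, with a median of -0.53, and of 11 genes of the piRNA pathway and germline RNA 1 rose and 2 fell. The summed level of the list was 1080 and 1050 CPM in parental ESCs and 1250 and 1240 CPM in ESC + H/F-PRAMEL7 WT. This rise did not hold across the list, in which 18 tested members were positive and 24 negative. By role, the meiotic chromosome genes summed to 208 and 252 against 135 and 153 CPM. The piRNA and RNA genes summed to 441 and 331 against 292 and 270 CPM. Only the sum of the other germline genes, which include Tuba3a and Rhox5, rose, from 430 and 473 to 827 and 818 CPM. Of the 25 genes that mark the state of the 2-cell embryo, 2 could be tested and neither passed the test, and 10 had no read in any of the 4 libraries.

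Imprinted genes were split by parental allele. Among 23 tested genes expressed from the paternal allele, 5 rose and 3 fell, against 4.07% and 8.41% of all tested genes. Nnat (neuronatin) had 1.7 and 2.22 CPM in parental ESCs and 8.96 and 9.25 CPM in ESC + H/F-PRAMEL7 WT (log2 fold change 1.78). Plagl1, a zinc finger transcription factor, rose by 1.09 and Sfmbt2, a Polycomb-related gene, by 0.92. Peg10, a retrotransposon-derived gene of the placenta, fell from 313 and 248 CPM to 148 and 148 CPM (-0.91). Its neighbor Sgce (epsilon-sarcoglycan), with which it shares a control region, had -0.88. Both lie on chromosome 6, whose tested genes outside 80 to 100 Mb had a median of -0.19. Among the 19 tested genes expressed from the maternal allele none rose and 3 fell, with Grb10 far ahead of the others. Igf2r, the receptor that clears IGF2, was at 139 and 185 CPM in parental ESCs and 97.9 and 111 CPM in ESC + H/F-PRAMEL7 WT (-0.62). The call of Igf2r was lost with median-ratio scaling, without parental library 2 (-0.41) and without either library of ESC + H/F-PRAMEL7 WT (adjusted p of up to 0.11). The call of Plagl1 was lost without library 1 of ESC + H/F-PRAMEL7 WT (0.95, adjusted p = 0.054) and that of Sgce without either library of that line (-0.92, adjusted p = 0.080, and -0.84, adjusted p = 0.098).

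No factor of the pluripotency core passed the test. None of the 12 tested genes of the core list was called by limma, with or without the fold limit. Of all tested genes 4.07% rose and 8.41% fell, shares at which few calls fall on 12 genes. At an unadjusted P value under 0.05, 1 was higher and 2 were lower. Pou5f1 (Oct4) had 659 and 750 CPM in parental ESCs and 823 and 855 CPM in ESC + H/F-PRAMEL7 WT (log2 fold change 0.25, standard error 0.09, adjusted p = 0.062). Sox2 had 206 and 262 CPM against 172 and 209 CPM (-0.29, adjusted p = 0.14). The libraries of the lines overlapped for Sox2 but not for Pou5f1.

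Of the 21 naive pluripotency genes, 1 rose and 3 fell, against 4.07% and 8.41% of all tested genes. By adjusted P value alone 1 was higher and 7 were lower, against 8.71% and 16.3%, and the median of the list was -0.08, as over all genes. Nr0b1 (Dax1), an X-linked nuclear receptor, had 68.9 CPM in both parental libraries and 117 and 130 CPM in ESC + H/F-PRAMEL7 WT (log2 fold change 0.83). Dppa3 (Stella), which protects the maternal genome from demethylation, fell from 9.5 and 14 CPM to 1.92 and 1.87 CPM (-2.12, adjusted p = 0.000527, limma). The adhesion molecule Pecam1 fell from 139 and 166 CPM to 78.9 and 77.1 CPM (-0.96). Nanog had 618 and 553 CPM in parental ESCs and 454 CPM in both libraries of ESC + H/F-PRAMEL7 WT (-0.36, adjusted p = 0.018), and Zfp42 (Rex1) had -0.39 (adjusted p = 0.018), both below the fold limit. Klf4 differed between the parental libraries, 253 and 362 CPM, with 182 and 202 CPM in ESC + H/F-PRAMEL7 WT (-0.66, adjusted p = 0.012). Its call was lost with median-ratio scaling, without parental library 2 (-0.40) and without either library of ESC + H/F-PRAMEL7 WT (-0.58, adjusted p = 0.11, and -0.73, adjusted p = 0.062). Esrrb was nearly equal, at 914 and 976 against 899 and 894 CPM (-0.08, adjusted p = 0.53), and its sign turned with median-ratio scaling (0.01).

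Genes of the formative and primed states, which follow the naive state, rose in 4 of 22 tested cases and fell in 1, against 4.07% and 8.41% of all tested genes. Dnmt3b, a de novo DNA methyltransferase, had 152 and 124 CPM in parental ESCs and 260 and 250 CPM in ESC + H/F-PRAMEL7 WT (log2 fold change 0.89, adjusted p = 0.00115, limma). The transcription factors Tead2 and Grhl2 rose by 0.72 and 0.66, whereas Zic2 had 10.5 and 10.2 CPM against 5.11 and 5.01 CPM (-0.90). Otx2, a factor of the transition out of the naive state, went from 44.4 and 43.5 CPM to 61.9 and 63.4 CPM (0.50, adjusted p = 0.00901), below the fold limit. Without parental library 1 the change of Tead2 was 0.57, just under the limit, and the call of Grhl2 was lost without library 2 of ESC + H/F-PRAMEL7 WT (adjusted p = 0.052).

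Lineage markers could be tested in part: 15 of 27 listed genes of the primitive endoderm, 18 of 26 of the trophectoderm, 9 of 26 of the primitive streak and mesoderm and 9 of 22 of the neural lineage. Of the primitive endoderm genes 3 rose and 1 fell, against 4.07% and 8.41% of all tested genes. By adjusted P value alone 6 were higher and 1 was lower, against 8.71% and 16.3%. Their median was 0.31, and the transcription factors Gata6 and Sox17 were too low to be tested. Apoe, an abundant member, had 127 and 222 CPM in parental ESCs and 276 and 300 CPM in ESC + H/F-PRAMEL7 WT, and its change without parental library 1 was 0.37, while without either library of ESC + H/F-PRAMEL7 WT its adjusted p was up to 0.15. Gata4 remained under 3 CPM in each library. Gata4 and Sox7 were the other members that rose, and the receptor gene Pdgfra was the member that fell (-0.60). The calls of Gata4, Sox7 and Pdgfra were lost without parental library 2 and without either library of ESC + H/F-PRAMEL7 WT. Over the fits without a library, Gata4 had 0.47 to 0.92, Sox7 0.41 to 0.76 and Pdgfra -0.65 to -0.54. Among the trophectoderm genes 2 rose and 2 fell: Wnt7b had 3.24 and 4.73 CPM against 12.6 and 12.1 CPM (1.44), Lgals3 (galectin-3) rose by 1.02 and the X-linked homeobox gene Esx1 had -1.23. In the primitive streak and mesoderm list 1 of 9 rose and 2 fell, and in the neural list 1 of 9 rose and 1 fell. Of the 8 fibroblast markers 1 rose and 3 fell, among them Thy1 (-1.08) and the receptor Pdgfrb (-1.43), while Loxl1, a collagen crosslinking enzyme, went from 1.96 and 2.98 CPM to 8.81 and 7.43 CPM (1.41).

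LIF keeps mouse ESCs undifferentiated through the receptor subunits LIFR and GP130, the JAK kinases and the transcription factor STAT3. Of 11 tested STAT3 target genes 4 rose and 1 fell, against 4.07% and 8.41% of all tested genes. Their median log2 fold change was 0.40 against -0.08 for all genes. The parental libraries were themselves apart here, with a median of -0.31 for library 1 minus library 2. The summed level of these targets overlapped between the lines, at 1420 and 1690 CPM in parental ESCs and 1440 and 1470 CPM in ESC + H/F-PRAMEL7 WT. Junb, an AP-1 subunit, had 12.3 and 16.5 CPM in parental ESCs and 24.0 and 34.4 CPM in ESC + H/F-PRAMEL7 WT (0.96), and Bcl3, a member of the IkB family, had 30.5 and 47.6 CPM against 66.5 and 63.1 CPM (0.75). Of the 8 receptors and kinases, Jak3 rose by 0.69, whereas Lifr had 130 and 120 CPM against 78.4 and 85.9 CPM (-0.60). Lifr was no longer called with median-ratio scaling, without parental library 1 (-0.54) and without library 1 of ESC + H/F-PRAMEL7 WT (-0.53). The median over the 19 genes of the pathway was above that of all genes in each alternative setting that alters fold changes. Settings that alter only P values, limits or the libraries of ESC + H/F-PRAMEL7 dN cannot move it. The call of Junb was lost without library 2 of ESC + H/F-PRAMEL7 WT (0.71, adjusted p = 0.087), and those of Bcl3 and Jak3 without parental library 1 (0.44 and 0.51) and without either library of ESC + H/F-PRAMEL7 WT (adjusted p of up to 0.11 and 0.079).

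Nodal, activin and TGF-beta ligands act through SMAD2 and SMAD3, and in this pathway 7 of 26 tested genes rose and none fell, against 4.07% and 8.41% of all tested genes. Inhbb, the subunit of activin B, had 47.6 and 45.9 CPM in parental ESCs and 103 and 106 CPM in ESC + H/F-PRAMEL7 WT (log2 fold change 1.15, standard error 0.09, adjusted p = 0.000192, limma). Inha, the subunit that turns activins into inhibins, was rare, with 0.206 and 0.325 CPM against 0.962 and 2.2 CPM. The median of the list was 0.09. By adjusted P value alone 8 genes were higher and 4 lower, against 8.71% and 16.3%. Inhbb was called in each of the 22 alternative settings, while Inha was not called without library 2 of ESC + H/F-PRAMEL7 WT (0.63, adjusted p = 0.15).

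Genes of other signaling pathways were also called, beside 4.07% upregulated and 8.41% downregulated among all tested genes. Of 17 BMP and Id genes 2 rose and 1 fell: Smad6, an inhibitory SMAD, had 1.19 and 2.55 CPM against 5.52 and 6.06 CPM (1.28), and its adjusted p was 0.055 without library 2 of ESC + H/F-PRAMEL7 WT. Of 13 Hedgehog genes 3 rose and none fell. The transducer Smo had 21.5 and 22 CPM in parental ESCs and 43.7 and 43.2 CPM in ESC + H/F-PRAMEL7 WT, and its effector Gli1 39.5 and 43.6 against 82.4 and 84.5 CPM (0.97 and 0.99). In the Wnt pathway 5 of 30 tested genes rose and 4 fell. Tcf7l1 (TCF3), a repressor of pluripotency genes, rose from 37.2 and 39.6 to 71.4 and 79.8 CPM (0.96), and the feedback inhibitors Axin2 and Znrf3 had -0.80 and -0.74. Among 23 FGF and ERK genes 3 rose and none fell, each of them at under 12 CPM. The calls of Axin2 and Znrf3 were lost without library 1 of ESC + H/F-PRAMEL7 WT (adjusted p = 0.065 and 0.055), and that of Axin2 without library 2 (0.061).

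Inflammatory and stress-related genes were divided, beside 4.07% upregulated and 8.41% downregulated among all tested genes. Of 17 NF-kB and inflammatory genes 4 rose and 1 fell. Csf3, the granulocyte colony-stimulating factor, had no read and 1 read in the parental libraries and 1.87 and 1.6 CPM in ESC + H/F-PRAMEL7 WT (adjusted p = 0.00123, limma). Of 13 interferon response genes none rose and 4 fell, with a median of -0.30. The RNA sensor Ddx58 (RIG-I) had 62.2 and 45.3 CPM against 31.5 and 28.0 CPM (-0.82), and Xaf1 had 54.1 and 49.8 CPM against 30.7 CPM in both libraries (-0.74). Immediate early genes rose in 5 of 22 cases and fell in 1. Among 25 p53 targets 4 rose and 2 fell: Phlda3 had 0.85, and Pmaip1 (NOXA), which promotes apoptosis, had -0.94. Without library 2 of ESC + H/F-PRAMEL7 WT the adjusted p of Ddx58 was 0.066 and that of Pmaip1 0.068. Of 30 genes of amino acid supply and the ATF4 response 2 rose (6.67%) and none fell. The falls among the p53 targets (8%) were near the share of all tested genes.

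Epithelial genes were called in the upward direction alone. Of 34 tested genes of epithelial junctions and keratins, 8 rose and none fell, with a median log2 fold change of 0.29 against -0.08, and 14 were higher and 3 lower by adjusted P value alone. Beside Krt17, Marveld1, a membrane protein with a MARVEL domain, went from 3.72 and 3.8 CPM to 10.9 and 11.2 CPM (1.34). The summed level of the list was 2300 and 2510 CPM in the parental libraries and 2880 and 2930 CPM in those of ESC + H/F-PRAMEL7 WT, which do not overlap. Matrix and integrin genes had calls in both directions: of 37 tested, 2 rose and 5 fell, against 4.07% and 8.41% of all tested genes. By adjusted P value alone 8 were higher and 5 lower, against 8.71% and 16.3%, and their median was 0.04. Of the 5 that fell, 2 lie on chromosome 11. Lama3, the laminin chain of epithelial basement membranes, had 6.96 and 10.1 CPM against 2.43 and 2.09 CPM (-1.53), and the integrin subunit Itgb3 had 13.8 and 13.9 against 5.72 and 6.06 CPM (-1.11).

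Genes of protein synthesis and respiration were shifted upward by small amounts that rarely reached the fold limit. Of 77 tested cytoplasmic ribosomal protein genes, 68 had a positive log2 fold change, 27 were higher and none was lower by adjusted P value, against 8.71% and 16.3% of all tested genes. Their median was 0.29 and 4 were called. Rps4x, the X-linked ribosomal protein, had 1839 and 1655 CPM in parental ESCs and 3094 and 3064 CPM in ESC + H/F-PRAMEL7 WT (0.82, adjusted p = 0.000851). The summed level was 75700 and 80400 CPM in the parental libraries against 94600 and 98100 CPM. Of 75 nuclear genes of oxidative phosphorylation, 60 were positive, 16 were higher and none was lower by adjusted P value, and Cox7b (0.61) was called. Both medians stayed above that of all genes in each alternative setting that alters fold changes. None of the 7 tested mitochondrial mRNAs was called, and their sum was 24100 and 12100 CPM in the parental libraries and 14200 and 12400 CPM in those of ESC + H/F-PRAMEL7 WT. The call of Cox7b was lost without parental library 1 (0.43) and without library 2 of ESC + H/F-PRAMEL7 WT (0.54).

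Calls in metabolic lists were mostly downward, the direction that 8.41% of all tested genes took, against 4.07% upward. None of 24 cholesterol synthesis genes rose and 2 fell, near the background, while 8 were lower by adjusted P value, against 16.3%, with a median of -0.21. Dhcr7, which encodes a late enzyme of the pathway, had 136 and 159 CPM against 87.8 and 86.5 CPM (-0.75). Of 32 tested glutathione, aldehyde and cytochrome P450 enzymes 9 fell and 1 rose. The glutathione transferase Gstm5 had 16.5 and 17.5 CPM against 8.00 and 7.38 CPM (-1.05), and Gstm6 had -1.13, whereas Gstp2 had 60.7 and 65.7 against 117 and 106 CPM (0.81). Members of the Gstm family are similar in sequence and could share reads. Of 24 glycolytic genes 1 rose and 3 fell: the X-linked Pgk1 had 679 and 618 CPM against 983 and 1008 CPM (0.62), and Aldoc had 57.5 and 81.4 against 31.3 and 33.5 CPM (-1.05). Without parental library 2, Pgk1 was at 0.55.

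Few genes of the ligase and of chromatin were called. Of all tested genes 4.07% rose and 8.41% fell, so such counts are close to the background. Of 21 tested genes of the CUL2 ligase, Pramel7 rose and Uba3, a subunit of the NEDD8-activating enzyme, fell from 55.3 and 64.3 CPM to 35.2 and 35.8 CPM (-0.73). Cul2 had 115 and 83.8 CPM against 90.5 and 90.7 CPM (-0.12, adjusted p = 0.58), with overlapping libraries. Of 41 proteasome genes 1 rose and none fell. Among 20 genes of DNA methylation 2 rose, with Dnmt3b (0.89) the higher, and 1 fell. Uhrf1, which recruits DNMT1 to hemimethylated DNA, had 531 and 573 CPM against 709 and 716 CPM (0.37, adjusted p = 0.0115), higher but below the fold limit. Dnmt1, the maintenance methyltransferase, had 448 and 536 CPM against 496 and 486 CPM (0.00, standard error 0.10).

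In the NuRD complex, which joins a CHD remodeler to histone deacetylases, 1 of 17 tested genes rose and 1 fell. By adjusted P value alone 6 were higher and 2 lower, against 8.71% and 16.3% of all tested genes. Mta3 had 104 and 105 CPM in parental ESCs and 163 and 175 CPM in ESC + H/F-PRAMEL7 WT (0.69). Chd3 had 33.7 and 46.4 against 22.3 and 23.9 CPM (-0.75), with -0.53 without parental library 2 and an adjusted p of up to 0.074 without a library of ESC + H/F-PRAMEL7 WT. Chd4, the main remodeler of the complex in ESCs, had 1099 and 1167 CPM against 1013 and 953 CPM (-0.20, adjusted p = 0.102). Among the 1612 tested genes whose promoters were bound by CHD4 in a published data set that the study used, 94 rose and 101 fell (5.83% and 6.27%, against 4.07% and 8.41% of all tested genes), and their median was -0.01. Of 30 Polycomb genes none rose and 2 fell, Ezh1 (-0.96) and Suz12 (-0.92), both subunits of Polycomb repressive complex 2. Suz12 had 222 and 214 CPM in parental ESCs and 107 and 122 CPM in ESC + H/F-PRAMEL7 WT. Among 39 cell cycle genes 2 rose and none fell: Ccnd3 (cyclin D3) had 192 and 233 against 399 and 411 CPM (0.94), and the inhibitor gene Cdkn2a had 0.80, with an adjusted p of 0.11 without library 2 of ESC + H/F-PRAMEL7 WT.

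Counts of 0 in a list are those of limma with both limits. At an unadjusted P value under 0.05 alone, the Nodal list had 6 genes lower, the Hedgehog list 1, the FGF and ERK list 4, the epithelial list 5, the amino acid and ATF4 list 6, the cell cycle list 4 and the proteasome list 9. On the upper side there were 2 maternal imprinted genes, 1 interferon response gene, 1 cholesterol gene and 5 Polycomb genes, and 1 ribosomal protein gene and 1 gene of oxidative phosphorylation were lower. With voom on the recovered reads, these lists had no call on those sides either, apart from 1 upregulated Polycomb gene.

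**Figure D4:**
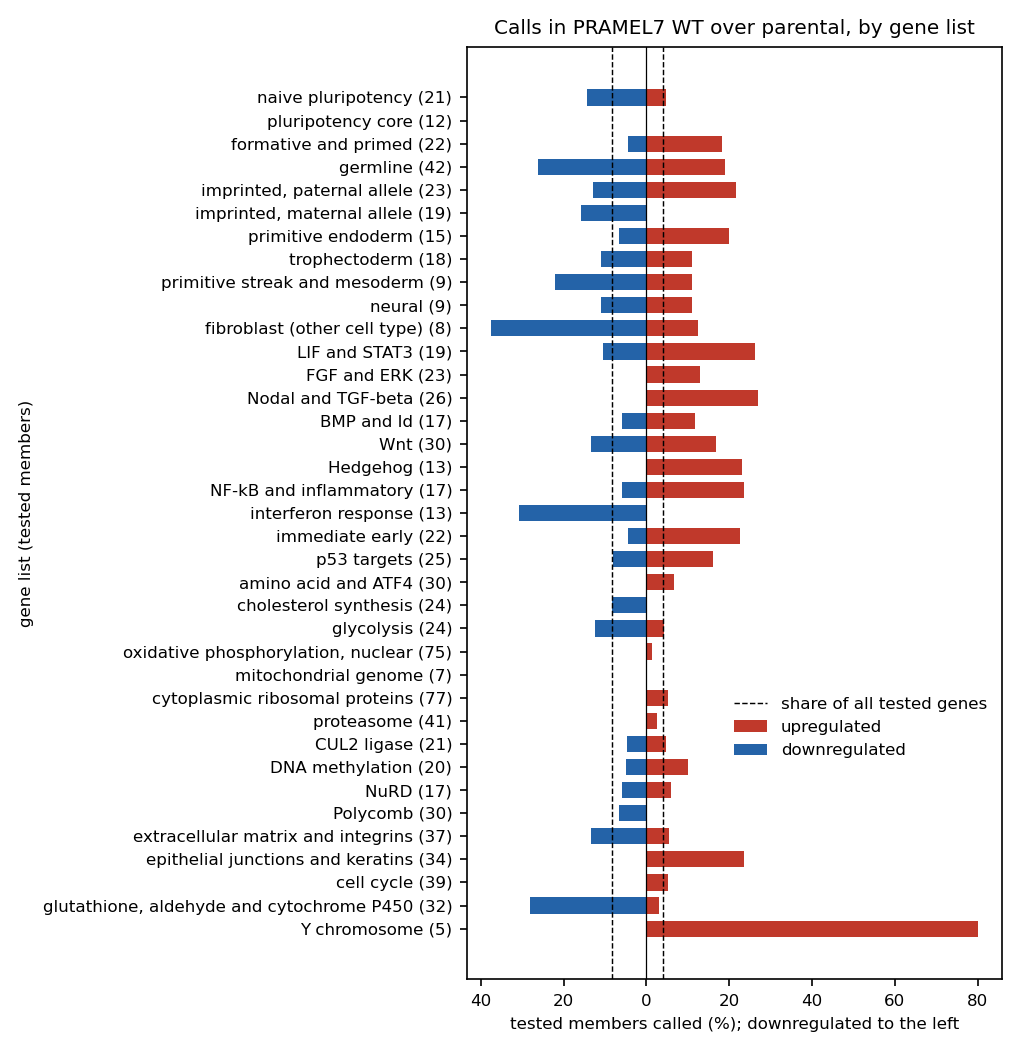
Share of the tested members of each gene list (y axis, with the number of tested members) that were upregulated (red, to the right) or downregulated (blue, to the left) in ESC + H/F-PRAMEL7 WT, in percent (x axis). Dashed lines mark the shares of all tested genes, 4.07% upregulated and 8.41% downregulated. Germline genes extend past both lines, epithelial and Nodal genes past the right line alone, and glutathione, aldehyde and cytochrome P450 enzymes past the left line alone.

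The calls were not spread evenly over the chromosomes. Chromosome 11 carried 269 of the 1086 downregulated genes, or 24.8%, against 8.53% of the tested genes, and 20 of the 526 upregulated ones. Its 1102 tested genes had a median log2 fold change of -0.36 in ESC + H/F-PRAMEL7 WT, and 945 of them were negative. By library, the median over these genes relative to the parental mean was -0.02 and 0.02 in the parental libraries and -0.37 and -0.35 in those of ESC + H/F-PRAMEL7 WT, so that the lines were separated by much more than the libraries within a line. In ESC + H/F-PRAMEL7 dN, compared with the same parental libraries, it was -0.32 and -0.33. The share of downregulated genes was between 11.8% and 38.1% in each of the 13 windows of 10 Mb along the chromosome. Outside chromosome 11, 506 genes rose and 817 fell, and the median was -0.05.

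Several named genes lie on chromosome 11. Of the 60 downregulated genes named by the rules used here, 16 are on it, among them Grb10, Meioc, Pecam1, Itgb3, Axin2, Znrf3, Chd3, Ezh1 and Suz12, and of the 73 upregulated ones 3 are, among them Krt17 and Rai1. Without this chromosome, no Polycomb gene and no NuRD gene was downregulated, and the Wnt list had 5 genes up and 1 down. The germline list then had 8 up and 9 down, and the enzymes of glutathione, aldehyde and cytochrome P450 had 1 up and 8 down. The Nodal, Hedgehog and cholesterol lists held no tested gene on chromosome 11.

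Further segments stood apart, with boundaries chosen after the values were seen. On chromosome 6, 54 of the 123 tested genes between 80 and 100 Mb fell and none rose, with a median of -0.54, and medians by library of -0.57 and -0.53 in ESC + H/F-PRAMEL7 WT and of -0.55 and -0.56 in ESC + H/F-PRAMEL7 dN. The rest of chromosome 6 had a median of -0.19 in ESC + H/F-PRAMEL7 WT and of 0.32 in ESC + H/F-PRAMEL7 dN. On the X chromosome, 17 of 84 genes between 90 and 110 Mb rose and 4 fell (median 0.34), and 21 of 51 genes between 130 and 140 Mb fell and none rose (median -0.48). Of the genes named by the rules used here, the segment of chromosome 6 holds M1ap and Uba3. That of the X chromosome from 90 to 110 Mb holds AU015836, Rps4x, Pgk1, Cox7b and Slc7a3, and that from 130 to 140 Mb holds Esx1. The 5 tested genes of the Y chromosome summed to 44.8 and 32.9 CPM in parental ESCs, to 75.5 and 78.9 CPM in ESC + H/F-PRAMEL7 WT and to 0.803 and 1.37 CPM in ESC + H/F-PRAMEL7 dN, and 4 of them rose. Copy numbers were not measured in these files, and their part in these shifts was not tested.

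**Figure D5:**
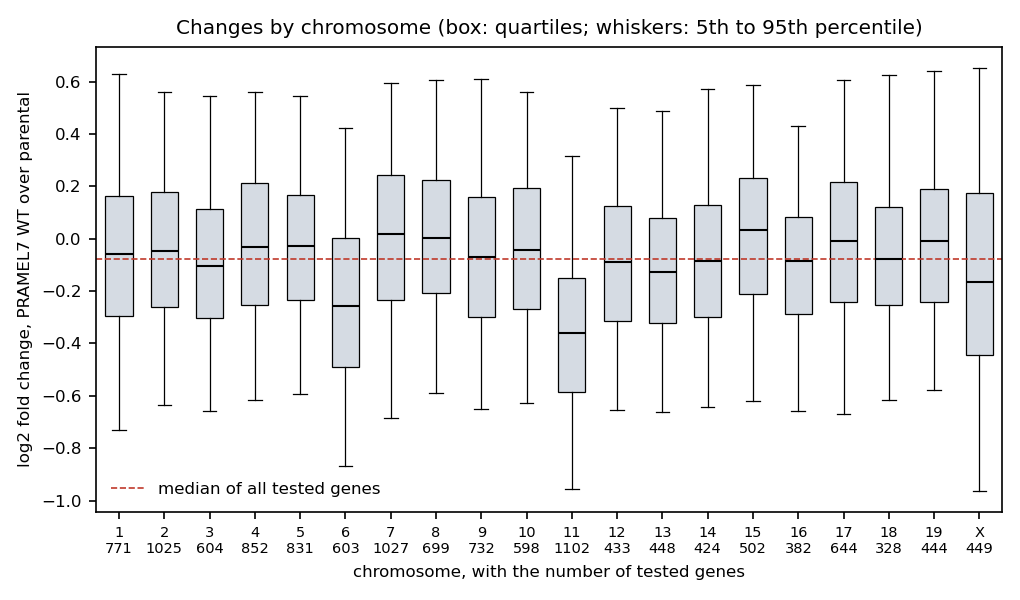
Log2 fold changes in ESC + H/F-PRAMEL7 WT over parental ESCs (y axis) of the tested genes of each chromosome (x axis, with their number). Boxes show the quartiles with the median as a line, whiskers reach from the 5th to the 95th percentile, and the dashed line is the median of all tested genes (-0.08). Chromosomes 11 (-0.36) and 6 (-0.26) have the lowest medians of the 20 chromosomes drawn.

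The values in ESC + H/F-PRAMEL7 dN, whose comparison uses the same parental libraries, were set beside those of ESC + H/F-PRAMEL7 WT for the genes with the largest changes. Usp26, Scml2, Meioc and Dnah8 were low in both derived lines, with log2 fold changes of -2.52, -3.83, -1.95 and -2.02 in ESC + H/F-PRAMEL7 dN. Grb10 (0.05), Krt17 (0.15), Pdgfc (0.16) and Rai1 (0.07) had small values there, and Nkx6-3 (0.97) and AU015836 (1.06) had values between those of parental ESCs and ESC + H/F-PRAMEL7 WT. Inhbb was at 123 and 117 CPM in ESC + H/F-PRAMEL7 dN, above both libraries of ESC + H/F-PRAMEL7 WT. Pramel7 was higher in ESC + H/F-PRAMEL7 dN, at 398 and 431 CPM, than in ESC + H/F-PRAMEL7 WT, so the lines differ in the level of the transgene as well as in its N-terminus, and these cannot be told apart.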

How the data were processed

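Polyadenylated RNA of parental ESCs, ESC + H/F-PRAMEL7 WT and ESC + H/F-PRAMEL7 dN was sequenced, with 2 libraries per line in the deposited files, whereas the methods of the study give triplicates. Per its methods, ribosomal reads were filtered out by the authors (SortMeRNA 2.1), followed by trimming (Trimmomatic 0.36) and alignment to mm10 (STAR 2.4.0.1), and RPKM from exon coverage was deposited. The submitters' processing notes also list Bowtie2 2.3.4.3 and Subread 1.4.6-p4. The deposited signal, mean reads after scaling over the libraries of a comparison, served only to find the length in RPKM. The fold changes and P values of the authors' own comparisons were not used. ChIP samples were not analysed here. The methods of the study do not state that the libraries kept strand, so reads of overlapping antisense genes may be mixed.

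Of 50978 table entries, 176 had a repeated or date-like name, 2723 had no and 72 had several matches in GENCODE vM21, which left 48007. The RPKM length was the gene span, introns included (within 10% for 98.36% of 10964 genes, against 8.665% for exon length). RPKM times span gave values within 0.1 of whole reads for 98.05 to 98.39% of those up to 20 reads. These were expressed as CPM with the deposited scaling kept.

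Genes above 1 CPM in at least 2 of 6 libraries (12914) were tested on log2(CPM + 1) with limma 3.58.1 (R 4.3.3), with a mean-variance trend, the 3 lines in a single fit and Benjamini-Hochberg adjustment. Calls needed an adjusted P value under 0.05 and an absolute log2 fold change above 0.58. Alternatives are given in the closing section. On simulated data for this comparison with 200 changed genes among 12914, 93.5% were recovered and 2 unchanged genes were called. Whether this share holds for weakly expressed genes or for fold changes near the limit was not tested. Named genes were Pramel7, per direction the 15 called genes with the largest change among those at 10 CPM or more with no overlap between libraries, up to 3 called members per list and direction, and a fixed set of regulators. The values of 2 named genes are not reported here. The detected genes, the lists and the limits were chosen with earlier results of these data known. The CHD4-bound genes come from the study's supplement. RefSeq promoter windows matched 76.3% of the tested genes, too few for a comparison of promoter composition. Figures were drawn with matplotlib 3.10.9, and tables were made in pandas 2.3.3 with numpy 2.4.6 under python 3.11.15.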

Additional observations from a re-analysis of the deposited data

Results flagged for a closer look

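For 12 of the named genes, ESC + H/F-PRAMEL7 WT and ESC + H/F-PRAMEL7 dN were called in opposite directions against the same parental libraries, and the direct contrast of the derived lines passed the test. The contrast gives the log2 difference of ESC + H/F-PRAMEL7 WT over ESC + H/F-PRAMEL7 dN, with adjusted P values from limma between 6.12e-07 and 0.000147 for these genes. Higher in ESC + H/F-PRAMEL7 WT were the Y-linked genes Eif2s3y (4.79), Ddx3y (3.84) and Uty (3.16), the germline genes Rhox5 (4.08), Tuba3a (3.39) and Fkbp6 (2.46), the imprinted genes Plagl1 (2.17) and Sfmbt2 (1.91), and Tmem40 (2.63), Gpx2 (2.00) and Gstp2 (1.42). Lower was the imprinted gene Peg10 (-1.62), which lies on chromosome 6. Outside 80 to 100 Mb, that chromosome had medians of -0.19 in ESC + H/F-PRAMEL7 WT and 0.32 in ESC + H/F-PRAMEL7 dN, the directions of Peg10. Tuba3a and Tmem40, also on chromosome 6, went the other way in both lines. Rhox5 had 8.78 and 5.75 CPM in ESC + H/F-PRAMEL7 dN, against 38.5 and 49.5 CPM in parental ESCs and 130 and 144 CPM in ESC + H/F-PRAMEL7 WT. Peg10 had 453 and 462 CPM in ESC + H/F-PRAMEL7 dN, against 313 and 248 CPM and against 148 and 148 CPM. The calls of Eif2s3y and Uty over parental ESCs were lost without either library of ESC + H/F-PRAMEL7 WT (adjusted p of up to 0.065 and 0.22), and that of Uty also without parental library 2 (log2 fold change 0.39) or a library of ESC + H/F-PRAMEL7 dN (adjusted p = 0.076). With 2 libraries per line, single outlying libraries were not searched for.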

How the results depend on the processing

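The counts of 526 upregulated and 1086 downregulated genes moved most with RPKM without conversion, where most values are small beside the 1 that is added, which gave 34 and 6. With 5 added before log2 they were 272 and 427, for genes above 10 CPM alone 330 and 524, without a fold limit 1125 and 2109, and with a limit of 1 on the log2 scale 90 and 233. Quantile normalization gave 803 upregulated genes and voom on recovered reads 819. Leaving out each library in turn gave 199 to 767 upregulated and 428 to 1464 downregulated genes, with the lowest counts without a library of ESC + H/F-PRAMEL7 WT and the highest without a parental one. A loess correction for GC content and length gave 578 and 759. With the replicate block, the counts were 499 and 1024, and Pramel7 had a log2 fold change of 5.33. Deviations of same-numbered libraries correlated at 0.207 between parental ESCs and ESC + H/F-PRAMEL7 WT. The value was -0.249 between parental ESCs and ESC + H/F-PRAMEL7 dN and -0.103 between the derived lines. With 2 libraries per line, such values cannot decide whether same-numbered libraries were paired.

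Of the 133 called genes that were named, 10 stayed called in each of the 22 alternatives, 123 with median-ratio scaling, 95 with 5 added before log2, 83 and 81 without library 1 and 2 of ESC + H/F-PRAMEL7 WT, and 55 and 14 with the limit of 1 and with RPKM, both of which lower the counts by construction. The sign turned for uncalled genes alone: Esrrb had 0.014 with median-ratio scaling and with voom, Dnmt1 had -0.042 with quantile normalization and -0.13 to 0.13 over the fits without 1 library (-0.012 without library 1 of ESC + H/F-PRAMEL7 WT), and Cul2 had 0.14 with the loess correction and -0.34 to 0.11 over the fits without 1 library. The median of the germline list turned from below to above that of all genes without parental library 1 (by 0.02). With 2 libraries per line from 1 clone, the spread between clones was not measured, and genes at a few reads could be tested for large changes alone.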
